A study of Mus musculus with 2 samples.

Results

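The tumour state described here is a set of epithelial cells rich in transcripts of Cadps, with Gkn3 or Rarb. A cell was taken as a member when its barcode had at least 5000 UMIs (unique molecular identifiers, 1 per captured transcript), at most 25% mitochondrial UMIs, at least 1 Epcam UMI, at least 10 Cadps UMIs and at least 2 UMIs of Gkn3 and Rarb together, whatever its cell cycle state. This rule found 360 cells among 11166 barcodes that passed the depth and mitochondrial limits. The KO library held 28 members beside 4225 other epithelial cells, and the WT library held 332 members beside 3917 other epithelial cells. Members thus made up 0.658% (95% interval 0.438% to 0.95%) of KO epithelial cells and 7.81% (7.02% to 8.66%) of WT epithelial cells.

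Mice received azoxymethane (AOM), a carcinogen, and dextran sulfate sodium (DSS), a detergent that injures the colon lining, and their colon tumours were dissociated into single cells. The KO tumours came from Gsk3β IEC-/- mice, which lack Gsk3b in intestinal epithelial cells, and the WT tumours from Gsk3β IEC+/+ mice. Both groups carried AOM/DSS-induced tumours, and no untreated colon was profiled in the samples used here. The promoter that drove the deletion, the number of animals behind each library, and their age and sex are not given in the sources used here. Each genotype was 1 library made with 10x Genomics 3ʹ version 3 chemistry, so genotype and library cannot be told apart and no test between genotypes was made. Members were chosen by their counts, so comparisons with other cells are descriptions without p-values, and each 95% interval covers counting error only.

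Cadps encodes a protein that primes dense-core vesicles for calcium-triggered release in neurons and endocrine cells. Rarb encodes retinoic acid receptor beta, a nuclear receptor that pairs with retinoid X receptors on DNA. Its own promoter carries a retinoic acid response element, a pair of short direct repeats spaced by a few bases, and is a classic retinoic acid target. Gkn3 encodes a gastrokine, a small secreted protein known from the mouse stomach. Tgm4, Onecut2 and Sox17, given as further markers of the state, encode a transglutaminase known from the prostate, a homeodomain transcription factor and a transcription factor of early endoderm.

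The promoter of Rarb is shown because its receptor is 1 of the genes that define the state. The sequence runs from 250 bases before to 50 bases after the RefSeq start, on the minus strand of chr14:16575427-16575726 (GRCm38.p6). Capitals mark a match to a direct repeat, GGTTCA followed by 5 bases of any kind and AGTTCA, which lies between positions -53 and -37 from the start.
Rarb promoter: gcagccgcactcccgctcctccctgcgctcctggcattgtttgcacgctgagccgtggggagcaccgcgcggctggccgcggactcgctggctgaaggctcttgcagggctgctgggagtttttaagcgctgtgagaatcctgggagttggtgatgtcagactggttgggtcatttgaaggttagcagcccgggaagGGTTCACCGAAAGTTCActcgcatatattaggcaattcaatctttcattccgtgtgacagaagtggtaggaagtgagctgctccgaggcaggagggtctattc
On either strand, this repeat was found in 2 of 32851 RefSeq promoters of the same length (0.00609%). A shorter form, GTTCA with the same spacer and AGTTCA, lies within the longer one and was found in 11 promoters (0.0335%), among them Rarb and Cyp26a1, whose enzyme degrades retinoic acid. The promoters of Cadps, Gkn3 and Tgm4 held neither form, which says only that these letters are not in those windows.

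Members were more deeply sequenced than other epithelial cells. The rule sets absolute counts, and its part in this difference was not tested. The median member had 32944.5 UMIs in KO and 29908 in WT, against 21844 for the other KO epithelial cells and 22561 for the other WT epithelial cells. Every member had more UMIs of 10 epithelial markers than of 16 non-epithelial markers, the condition also set for the other epithelial cells. No barcode was shared between members of the 2 libraries, and 3 barcodes were shared among all epithelial cells. Gsk3b measured 257 CPM (UMIs of the gene per 1e6 UMIs of its group of cells) in KO members and 236 CPM in the other KO epithelial cells, against 291 CPM in WT members and 255 CPM in the other WT epithelial cells. Because 3ʹ tags may lie outside a deleted exon, this level does not check the genotype labels.

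The values that chose the members were as follows, and they support nothing further. Cadps ranged over 10 to 158 UMIs per KO member (median 20.5) and 10 to 156 per WT member (median 20). Rarb ranged over 1 to 29 UMIs per KO member (median 3) and 0 to 45 per WT member (median 5). Gkn3 was at 0 in 25 of 28 KO members and never exceeded 1 UMI there, while in WT members it was at 0 in 155 cells, at 1 in 52, and at 2 or more in 125, with a highest value of 66. Rarb alone would have met the minimum in 27 KO and 299 WT members, and 167 of 332 WT members had both genes.

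**Figure D1:**
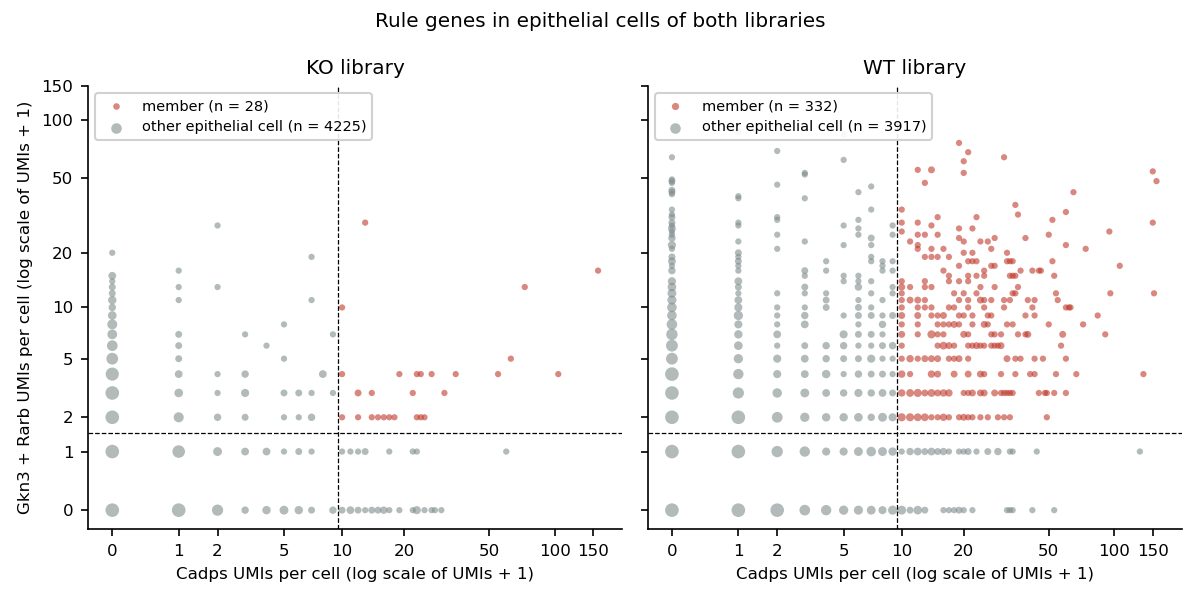
Cadps UMIs (horizontal) against Gkn3 plus Rarb UMIs (vertical) in each epithelial cell of the KO library (left) and the WT library (right). Dashed lines mark the thresholds of 10 and 2 UMIs, and red points are the 28 KO and 332 WT members.

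The thresholds cut through a continuous range of values. The 66 WT members with 10 to 12 Cadps UMIs had 172 CPM of Sox17 and 130 CPM of Onecut2. The 74 WT cells just outside, with 7 to 9 Cadps UMIs and the same Gkn3 plus Rarb minimum, had 232 CPM of Sox17 and 140 CPM of Onecut2. The 35 WT members with exactly 2 Gkn3 plus Rarb UMIs had 153 CPM of Sox17 and 128 CPM of Onecut2. The WT cells with 10 or more Cadps UMIs but only 1 such UMI numbered 34, with 125 CPM of Sox17 and 80.0 CPM of Onecut2. Another 31 had no such UMI, with 154 CPM of Sox17 and 40.8 CPM of Onecut2. Onecut2 was thus lower outside this threshold, while Sox17 was not lower in the cells with none. In KO, 6 members lay at 10 to 12 Cadps UMIs and 12 cells at 7 to 9.

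The 3 markers outside the rule were all higher in WT members than in the other WT epithelial cells, by different amounts. Tgm4 measured 59.2 CPM in members and 8.39 CPM in others, a log2 ratio of 2.82 (2.67 to 2.96). Onecut2 measured 146 CPM in members and 54.1 CPM in others, a log2 ratio of 1.44 (1.36 to 1.51). Sox17 measured 216 CPM in members and 93.1 CPM in others, a log2 ratio of 1.21 (1.15 to 1.28). A narrower set of other cells was also used, namely the 2255 other WT cells with 3 or more Notum UMIs, 5 or more Krt17 plus Sema3e UMIs or 5 or more Pnliprp2 plus Ptn plus Apcdd1 UMIs, called tumour-marker cells here. Against these, the log2 ratios were 2.40 for Tgm4, 1.12 for Onecut2 and 0.89 for Sox17, so Sox17 was less than 2-fold higher.

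Per cell, Sox17 was detected in 89.2% of WT members and 60.1% of other WT epithelial cells. After every cell was thinned to 5000 UMIs these shares were 57.2% and 29.3%. Onecut2 was detected in 84.0% of members and 45.5% of others (50% and 18.3% thinned), and Tgm4 in 38.3% of members and 8.65% of others (16.6% and 3.06% thinned). In WT immune cells, which should lack these genes and had a median of 8068 UMIs, the unthinned shares were 9.99% for Sox17, 6.23% for Onecut2 and 1.59% for Tgm4, and the thinned shares were 5.36%, 3.55% and 0.579%. All 3 markers together were detected in 113 WT members (34.0%; 6.63% thinned) and in 230 other WT epithelial cells (5.87%; 0.689% thinned). None of the 3 was detected in 18 members (5.42%) and 1080 others (27.6%). The 3 markers were thus higher on average in WT members, but none was found in every member. They were given with the label, with earlier results of these data known, so they do not test it.

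Members lay near other members, but most of their neighbours were not members. Neighbours were taken in 30 principal components of 2000 variable genes, leaving out Cadps, Gkn3, Rarb and Epcam. A WT member had a median of 5 members among its 15 nearest WT cells, or 33.3%, where members made up 7.81% of WT epithelial cells. Another WT epithelial cell had a median of 0. A majority of 8 or more was seen for 82 of 332 members, and no member neighbour for 24. Of the other WT epithelial cells, 56 had 8 or more member neighbours, and 55 of these had fewer than 10 Cadps UMIs. Cells close to members in their other genes thus lay outside the rule.

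**Figure D2:**
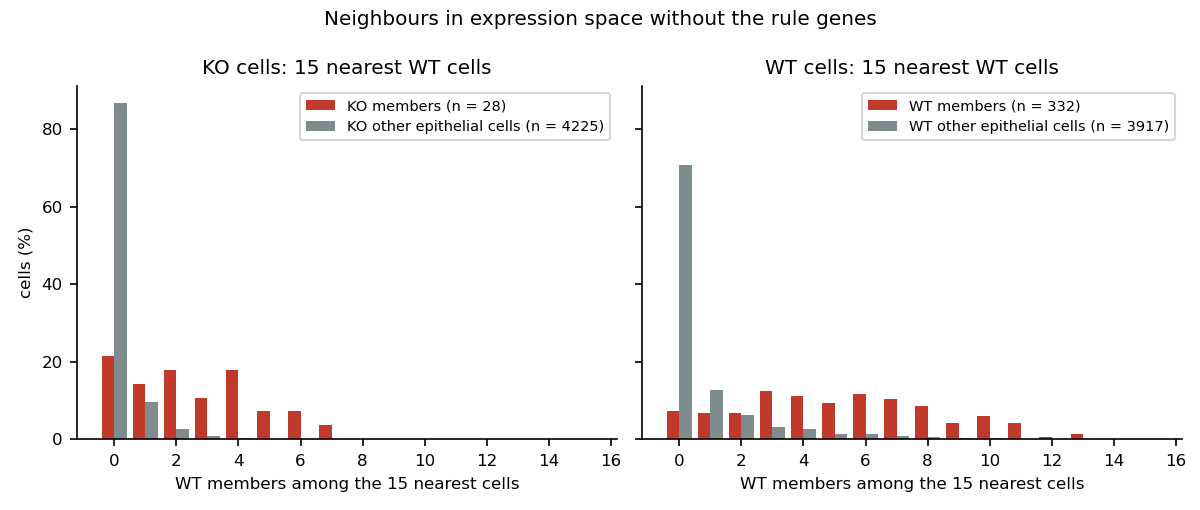
Percent of cells (vertical) by the number of WT members among their 15 nearest WT cells (horizontal), for KO cells (left) and WT cells (right). KO cells were placed in components computed on both libraries together, and WT cells in components of the WT library alone. WT members spread from 0 to 13 with a median of 5, KO members reach 7 with a median of 2, and other epithelial cells mostly sit at 0.

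Most members also met the marker definitions of other tumour populations. Of WT members, 293 (88.3%) met the Pnliprp2, Ptn and Apcdd1 criterion, 215 (64.8%) the Notum criterion and 210 (63.3%) the Krt17 and Sema3e criterion. The shares in the other WT epithelial cells were 39.9%, 35.3% and 36.7%. In all, 321 members (96.7%) met at least 1 of the 3, against 2255 others (57.6%). Only 10 members (3.01%) had 5 or more Fstl4 plus Fut9 UMIs, against 18.7% of others. These criteria are absolute counts too, so the greater depth of members moves with these shares, and its part was not tested.

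Across the transcriptome, 719 of 15710 genes with at least 50 UMIs were 2-fold or more higher in WT members than in the other WT epithelial cells (4.58%), and 1153 were 2-fold or more lower (7.34%). The median log2 ratio over all of these genes was 0.04. Against tumour-marker cells only, 330 of 14870 genes were higher (2.22%) and 504 were lower (3.39%). For 27 of the 719 higher genes, a single cell supplied more than 50% of the members' UMIs.

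The 24 highest genes beyond those of the rule had varied roles. Sdk1, a neuronal adhesion molecule of the immunoglobulin superfamily, measured 33.3 CPM in members and 4.32 CPM in others. Chsy3, an enzyme that builds chondroitin sulfate chains, measured 61.9 CPM in members and 8.56 CPM in others. Tafa2, which encodes a secreted chemokine-like protein, measured 96.6 CPM in members and 17.0 CPM in others. The log2 ratios were 2.94 (2.75 to 3.14) for Sdk1, 2.85 (2.71 to 2.99) for Chsy3 and 2.50 (2.40 to 2.61) for Tafa2. Adamts9, a secreted metalloprotease, measured 92.6 CPM in members and 19.5 CPM in others, and Cntn3, a contactin of neuronal surfaces, 44.6 CPM in members and 8.84 CPM in others. Pcdh7, a protocadherin, measured 60.3 CPM in members and 13.6 CPM in others.

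The 24 also held Tmod2, Pfn2 and Enah, which regulate actin. Tmod2, which caps actin filaments, measured 42.5 CPM in members and 9.54 CPM in others. Pfn2, a profilin, measured 39.6 CPM in members and 9.22 CPM in others. Enah, which promotes filament elongation, measured 52.0 CPM in members and 13.2 CPM in others. The rest of the 24 included Gabrb1 (a GABA-A receptor subunit), Dtna (dystrobrevin), Prickle1 (planar polarity), Cdk14 (a cyclin-dependent kinase), Nrxn3 (a neurexin) and Rcan2 (a calcineurin regulator), with log2 ratios from 1.95 to 2.25. All 24 were also more than 2-fold higher than in tumour-marker cells. Mptx2, a mucosal pentraxin, measured 100.3 CPM in members and 18.5 CPM in others, but its close paralogue Mptx1 makes the assignment of its reads uncertain.

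A few high ratios came from single cells. Ppy, which encodes pancreatic polypeptide, measured 96.0 CPM in members and 1.92 CPM in others, but 1 cell supplied 99.2% of the members' UMIs. The same held for Chgb, a granule protein of endocrine cells, at 97.6%. That cell is 1 of 2 WT members with 20 or more enteroendocrine marker UMIs, and it had 2449 of them. Without these 2 members the log2 ratio was -1.40 for Ppy and -3.41 for Chgb.

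**Figure D3:**
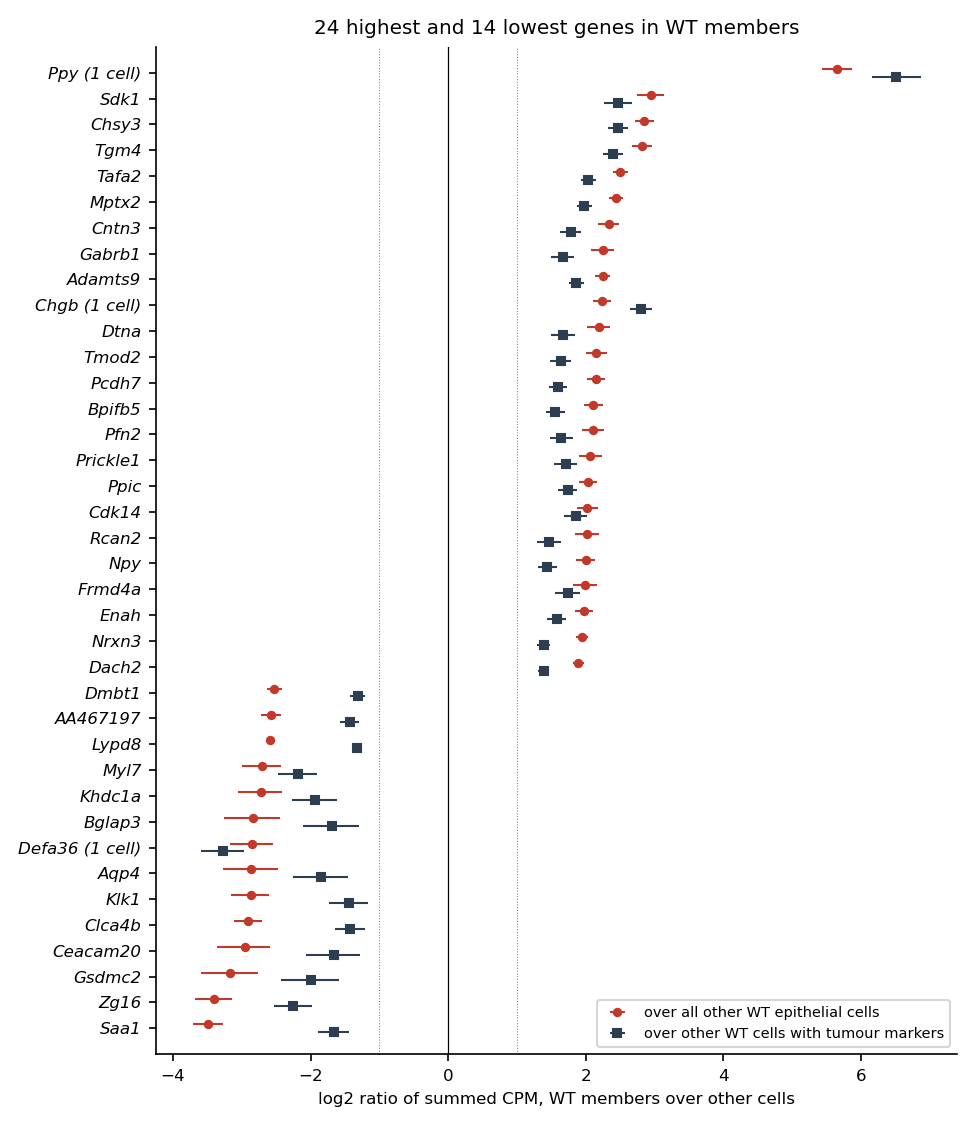
Log2 ratio with its 95% interval for the 24 highest and 14 lowest genes by the naming rule, in WT members over all other WT epithelial cells (red circles) and over tumour-marker cells (dark squares). All 38 stay past 2-fold against both sets of cells, and "(1 cell)" marks Ppy, Chgb and Defa36, for which a single cell holds most member UMIs.

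The other retinoid receptors did not share the pattern of Rarb. Rarb itself measured 186 CPM in members and 35.7 CPM in others, by the rule. Rara measured 28.8 CPM in members and 28.9 CPM in others, and Rarg 8.78 CPM in members and 7.23 CPM in others. Of the retinoid X receptors, Rxrb measured 27.9 CPM in members and 30.9 CPM in others, and Rxra was less than 2-fold lower at 6.20 CPM in members and 8.29 CPM in others. Of the 5 listed receptors, only Rarb was past 2-fold.

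Genes of retinoid uptake and metabolism differed in both directions. Stra6, the membrane receptor that takes up retinol from its carrier, measured 193 CPM in members and 78.1 CPM in others, a log2 ratio of 1.30 (1.24 to 1.37). The ratio was 0.84 (0.77 to 0.90) against tumour-marker cells. Stra6 was detected in 92.2% of members and 50.4% of others (52.7% and 24.2% thinned), against 9.49% of WT immune cells (5.50% thinned). Rdh10, which oxidises retinol to retinal, measured 221 CPM in members and 171 CPM in others. The dehydrogenases Aldh1a3 and Dhrs9, which act in the formation of retinoic acid and retinal, were lower, with Aldh1a3 at 7.65 CPM in members and 31.1 CPM in others, and Dhrs9 at 4.19 CPM in members and 22.7 CPM in others. Of 19 listed retinoid handling genes, 1 was 2-fold or more higher and 5 were 2-fold or more lower. The shares of all genes were 4.58% higher and 7.34% lower.

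Cyp26a1, whose promoter shares the short repeat with Rarb, was close to undetected, at 3 UMIs over all WT members (0.242 CPM) and 25 UMIs over the others (0.236 CPM). The matching stretch of its promoter, on the plus strand within chr19:37697558-37697857 (GRCm38.p6), is shown with the repeat in capitals, in the opposite orientation to that of Rarb.
Cyp26a1 promoter, part: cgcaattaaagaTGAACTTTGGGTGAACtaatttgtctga
Crabp1 and Crabp2, the cellular retinoic acid binding proteins, had 1 UMI each over WT members, against 15 and 19 over the other cells.

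The level of Cadps was not matched by the wider machinery of regulated secretion. Cadps measured 702 CPM in members and 39.0 CPM in others, by the rule. Its paralogue Cadps2 was lower, at 27.6 CPM in members and 67.3 CPM in others, a log2 ratio of -1.28 (-1.45 to -1.13). Rims2, a scaffold of the vesicle release site, measured 59.8 CPM in members and 27.3 CPM in others, and Stx1a, a membrane fusion protein, 49.5 CPM in members and 25.2 CPM in others. The priming factor Unc13b was near equal at 85.7 CPM in members and 81.6 CPM in others. Of 29 listed genes, 5 were 2-fold or more higher and 1 lower, and their median log2 ratio was 0.07. Over all genes, 4.58% were higher and 7.34% lower. The 5 higher genes include Cadps itself and Scg5, an enteroendocrine marker. Without the members rich in enteroendocrine markers, Scg5 was no longer 2-fold higher.

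Enteroendocrine markers were near equal in the typical cell, while Npy, which encodes neuropeptide Y, was higher in members. Npy measured 52.0 CPM in members and 13.02 CPM in others, a log2 ratio of 1.998 (1.86 to 2.13), with UMIs in 65 members. The enteroendocrine marker sum was 261 CPM in members and 147 CPM in others, while the median cell had 30.7 CPM among members and 28.8 CPM among others. Scg2, a secretogranin, was found in 2 members, and 1 of these supplied 92.3% of its UMIs.

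No listed gastric gene other than Gkn3 was 2-fold or more higher in members. Gkn3 measured 109 CPM in members and 36.7 CPM in others. Gkn1, a gastrokine of stomach surface cells, was near the detection limit, at 1.77 CPM in members and 1.15 CPM in others. Ctse, cathepsin E, measured 43.4 CPM in members and 35.6 CPM in others, and Vsig1, a gastric junction protein, was lower at 5.31 CPM in members and 18.1 CPM in others. Of 12 listed gastric genes, 1 (Gkn3 itself) was 2-fold or more higher and 1 was lower. The shares of all genes were 4.58% higher and 7.34% lower. The gastric genes had a median log2 ratio of 0.42, with 8 above 0, against 0.04 for all genes. Against tumour-marker cells the gastric median was 0.29, with 7 of 10 above 0.

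Cdx1 and Cdx2, homeobox factors of intestinal identity, were lower in members. Cdx1 measured 20.4 CPM in members and 64.1 CPM in others, a log2 ratio of -1.65 (-1.83 to -1.47). Cdx2 measured 1.93 CPM in members and 9.94 CPM in others. Both remained more than 2-fold lower against tumour-marker cells, at log2 ratios of -1.07 for Cdx1 and -1.48 for Cdx2. Hnf4a, a nuclear receptor of gut epithelium, was less than 2-fold lower and measured 49.5 CPM in members and 80.6 CPM in others. Gata4, a factor of foregut and small intestine, rested on 29 member UMIs, at 2.33 CPM in members and 0.500 CPM in others. Of 28 listed gut factors, 3 were 2-fold or more higher, the state markers Sox17 and Onecut2 among them, and 4 were lower. Over all genes, 4.58% were higher and 7.34% lower. The median log2 ratio of the gut factors was 0.04, with 15 above 0, and that of all genes was 0.04.

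Wnt pathway genes were moderately higher in members. Wnt6 and Wnt10a, which encode ligands, measured 154 and 96.9 CPM in members, against 73.3 and 44.8 CPM in others. Apcdd1, a secreted pathway inhibitor at the cell membrane, measured 159 CPM in members and 65.0 CPM in others, and Wif1, which binds Wnt ligands, 512 CPM in members and 267 CPM in others. The target genes Axin2, Nkd1, Znrf3 and Lef1 had log2 ratios between 0.48 and 0.72. Lgr5, the stem cell receptor for R-spondin, was lower at 92.7 CPM in members and 150 CPM in others. Ctnnb1, which encodes beta-catenin, measured 646 CPM in members and 470 CPM in others.

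The median log2 ratio over 31 listed Wnt targets was 0.49, with 4 genes 2-fold or more higher and 1 lower. For all genes, the median was 0.04 and the shares were 4.58% higher and 7.34% lower. Against tumour-marker cells the targets had a median of 0.14, and none was 2-fold higher. Notum, which inactivates Wnt ligands, measured 137 CPM in members and 140 CPM in tumour-marker cells. That last comparison shares a gene with the choice of those cells. None of the 12 listed destruction complex genes, such as Gsk3b and Gsk3a, was past 2-fold in either direction. Gsk3a measured 44.5 CPM in members and 44.4 CPM in others.

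Type I interferon response genes were higher in members than in the other epithelial cells. Ifit1 and Ifit2, which bind viral RNA, measured 353 and 211 CPM in members, against 163 and 80.8 CPM in others. Rsad2, an antiviral enzyme, measured 170 CPM in members and 77.8 CPM in others, and Ifih1, a sensor of double-stranded RNA, 404 CPM in members and 194 CPM in others. Of 18 listed genes, 7 were 2-fold or more higher and none lower, with a median log2 ratio of 0.69 against 0.04 for all genes. The all-gene shares were 4.58% higher and 7.34% lower. Against tumour-marker cells, 2 of the 18 interferon genes were 2-fold or more higher, where 2.22% of all genes were. The median of the 18 was 0.49 there.

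This signal was uneven from cell to cell. The summed interferon genes had a median of 978 CPM per WT member, with the 10th and 90th percentiles at 203 and 5140 CPM. The median was 359 CPM in the other WT epithelial cells, with 119 and 3460 CPM at those percentiles. Other cells meeting the Krt17 and Sema3e criterion had a median of 1042 CPM, above that of the members.

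Genes of axon guidance and neuronal adhesion contributed several higher values. Robo1, a receptor for Slit ligands, measured 729 CPM in members and 268 CPM in others. Dab1, an adaptor of reelin signalling, measured 126 CPM in members and 34.9 CPM in others, and Nrxn3 121 CPM in members and 31.3 CPM in others. Outside the axon guidance list, Kcnb2, a voltage-gated potassium channel subunit, measured 328 CPM in members and 106 CPM in others. Among 19 listed ion channel genes, 2 were 2-fold or more higher and 8 lower, with a median log2 ratio of -0.69. Plat, tissue plasminogen activator, measured 639 CPM in members and 272 CPM in others. It came from an epithelial-mesenchymal list in which 2 of 17 listed genes were 2-fold or more higher and 2 lower. Of 26 listed axon guidance genes, 5 were 2-fold or more higher and 1 lower, with a median log2 ratio of 0.20. For each of these lists, the all-gene shares were 4.58% higher and 7.34% lower. Against tumour-marker cells, 4 of 24 axon guidance genes were 2-fold or more higher and 1 lower, with a median of 0.06. The all-gene shares there were 2.22% higher and 3.39% lower.

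**Figure D4:**
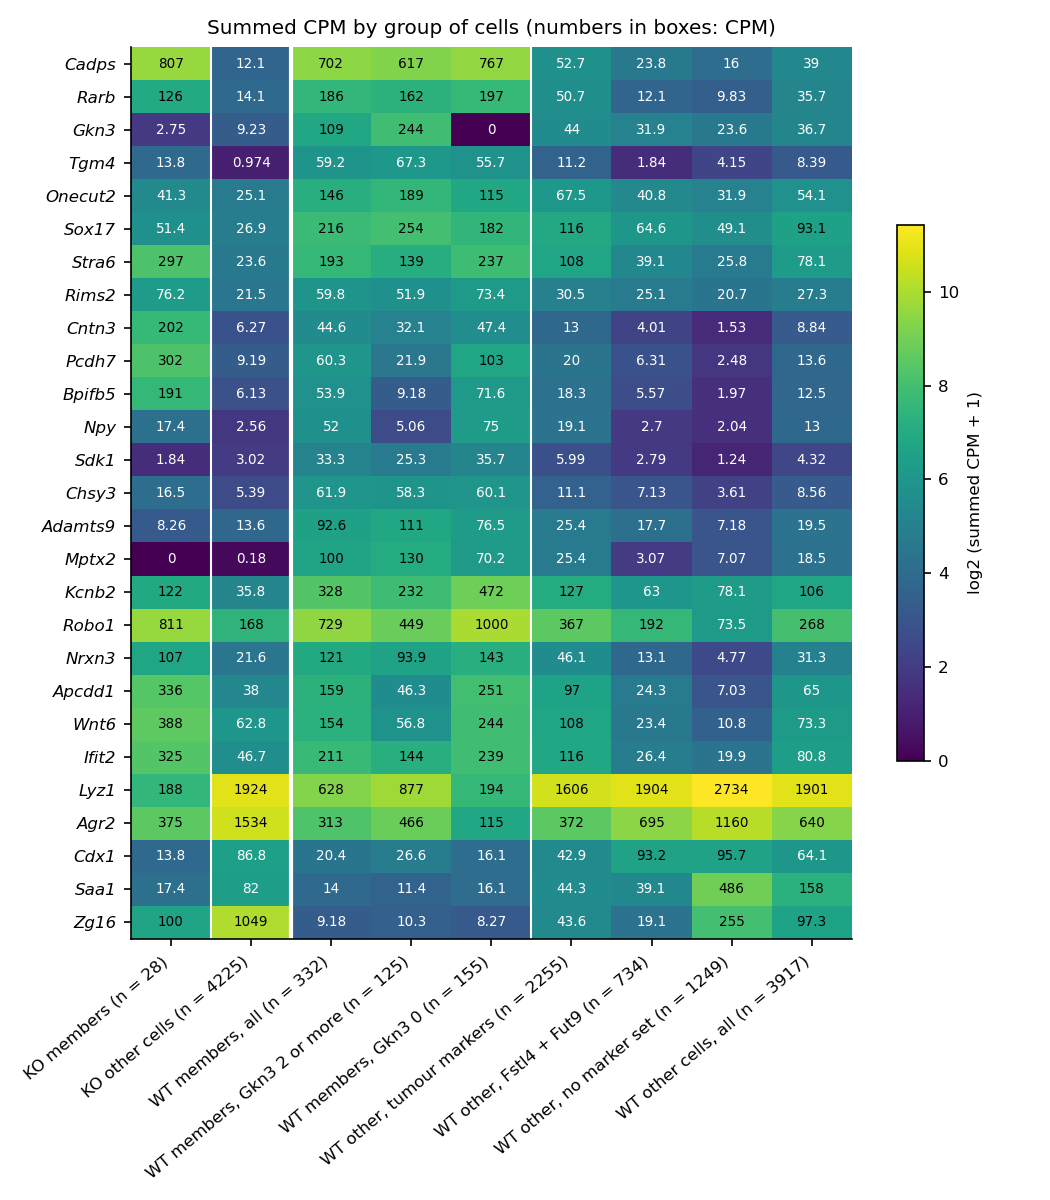
Level in CPM, on a log colour scale, of 27 genes (rows) in 9 groups of cells (columns), with KO members left of the other KO epithelial cells and WT members left of the other WT groups. Sox17, Onecut2 and Tgm4 are highest in the WT columns of members, while Stra6 is also high in KO members (297 CPM).

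The 14 lowest genes by the naming rule included several of mature surface or goblet cells. Saa1, an acute phase protein of injured epithelium, measured 14.01 CPM in members and 158 CPM in others. Zg16, a goblet cell lectin, measured 9.18 CPM in members and 97.3 CPM in others, and Gsdmc2, a gasdermin, 4.11 CPM in members and 36.8 CPM in others. Lypd8, which keeps flagellated bacteria off the colon surface, measured 562 CPM in members and 3372 CPM in others. The log2 ratios were -3.49 (-3.71 to -3.28) for Saa1, -3.41 (-3.69 to -3.14) for Zg16 and -2.59 (-2.62 to -2.55) for Lypd8. Dmbt1, a mucosal scavenger protein, and Aqp4, a water channel, had log2 ratios of -2.53 and -2.86.

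Of 17 listed absorptive genes, 13 were 2-fold or more lower in members and 1 was higher, namely Slc9a3, the apical sodium and proton exchanger, at 153 CPM in members and 70.5 CPM in others. The all-gene shares were 4.58% higher and 7.34% lower. Against tumour-marker cells, 4 of 14 listed absorptive genes were lower, where 3.39% of all genes were. Of 14 listed goblet genes, 11 were lower and none higher, and 8 of 14 were lower against tumour-marker cells. Muc2, the gel-forming mucin, measured 49.9 CPM in members and 205 CPM in others, and Spink4 510 CPM in members and 1882 CPM in others. Of 14 Paneth-like genes, 8 were lower and 1 higher, with Lyz1 (lysozyme) at 628 CPM in members and 1901 CPM in others. The Paneth-like counts against tumour-marker cells were 7 of 14 lower and 2 higher. A single member supplied 30.4% of the Lyz1 UMIs, and near-identical copies make individual Defa genes uncertain.

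For secretory genes, the sums and the typical cell gave different pictures. The goblet sum was 1053 CPM in members and 3442 CPM in others, but the median cell had 391 CPM among members and 431 CPM among others. The 90th percentiles were 925 CPM in members and 1680 CPM in others. For the Paneth-like sum, the median was higher in members, at 1102 CPM in members and 754 CPM in others, although the sum over all cells was 2576 CPM in members and 5505 CPM in others. The difference between sums and medians lies in the cells with the highest values.

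Of 21 listed genes of fetal and regenerating epithelium, 6 were 2-fold or more lower in members and 1 was higher. Ly6a, known as a marker of repairing colon epithelium, measured 164 CPM in members and 662 CPM in others, and Anxa1 237 CPM in members and 482 CPM in others. The ligands Areg and Ereg measured 96.3 and 1.21 CPM in members, against 295 and 9.02 CPM in others. Of 13 listed EGF family genes, 4 were 2-fold or more lower and none higher. For both lists, the all-gene shares were 7.34% lower and 4.58% higher. Etv5, a target of receptor kinase signalling, was higher at 131 CPM in members and 56.7 CPM in others.

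**Figure D5:**
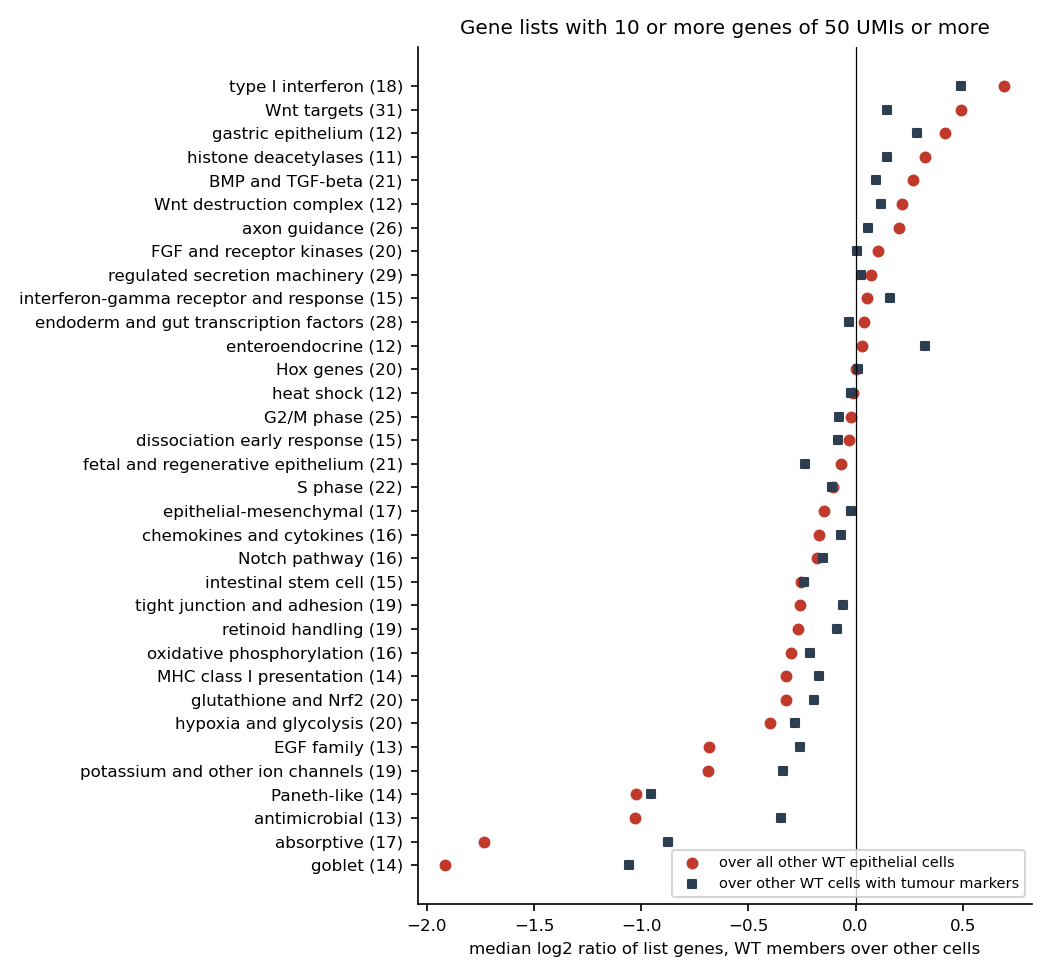
Median log2 ratio of the gene lists with at least 10 listed genes, in WT members over all other WT epithelial cells and over tumour-marker cells. The goblet median is -1.91 against all others and -1.06 against tumour-marker cells, and the type I interferon median is 0.69 and 0.49.

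Fewer WT members than other cells were classed as cycling by their transcripts. At 5000 UMIs per cell, 52 of 332 WT members (15.7%, interval 11.9% to 20.03%) had this class, against 24.2% of the other WT epithelial cells (22.9% to 25.6%) and 21.9% of tumour-marker cells. Unthinned, the shares were 14.2% in members and 20.8% in the other WT epithelial cells. In KO, 2 of 28 members were cycling (7.14%, interval 0.877% to 23.5%), against 24.1% of the other KO epithelial cells. The class rests on transcript sums for S and G2/M genes, which free RNA can also raise, and that part was not tested.

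WT members were also divided by Gkn3, after the values had been seen. The 125 members with 2 or more Gkn3 UMIs had a median of 33529 UMIs, and the 155 without Gkn3 had 25738. By the rule, those without Gkn3 had at least 2 Rarb UMIs. Of 10832 genes, 330 were 2-fold or more higher with Gkn3 (3.05%) and 487 were lower (4.5%). Among the highest was Prap1, a protein of intestinal epithelium, at 36.0 CPM with Gkn3 and 1.82 CPM without, with UMIs in 25 and 9 cells. Lgals2, a galectin of the gut, measured 46.3 CPM with Gkn3 and 5.65 CPM without, and Cldn2, a pore-forming claudin, 128 CPM with Gkn3 and 39.1 CPM without. B4galnt2, a glycosyltransferase of the colon, measured 62.2 CPM with Gkn3 and 16.7 CPM without. The single cell that supplied most Ppy and Chgb UMIs was among those without Gkn3. Ppy had 2 UMIs with Gkn3 and 1188 without, and Chgb 7 with Gkn3 and 748 without. Such endocrine genes are among the lower genes, and no values of this comparison without that cell are given here.

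The markers of the state went partly with Gkn3. Onecut2 measured 189 CPM with Gkn3 and 115 CPM without, and Sox17 254 CPM with Gkn3 and 182 CPM without, while Tgm4 measured 67.3 CPM with Gkn3 and 55.7 CPM without. Stra6 was lower, at 139 CPM with Gkn3 and 237 CPM without. Of the cycle genes, 18 of 21 listed S phase genes and 20 of 25 listed G2/M genes were 2-fold or more higher with Gkn3, and thinned cycling shares were 26.4% with Gkn3 and 9.68% without.

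Several Wnt and adhesion genes were lower with Gkn3. Apcdd1 measured 46.3 CPM with Gkn3 and 251 CPM without, and Wnt6 56.8 CPM with Gkn3 and 244 CPM without. Pnliprp2, a pancreatic lipase relative, measured 37.9 CPM with Gkn3 and 370 CPM without, in 84 of 125 cells and 93 of 155 cells. Pcdh7 measured 21.9 CPM with Gkn3 and 103 CPM without, and Bpifb5, of a family of secreted lipid-binding proteins, 9.18 CPM with Gkn3 and 71.6 CPM without. Robo1 measured 449 CPM with Gkn3 and 1000 CPM without. Npy measured 5.06 CPM with Gkn3 and 75.04 CPM without, where 45 of 155 cells had it.

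The 28 KO members shared part of the WT pattern and had Gkn3 and Tgm4 in few cells. Of 15488 genes, 1785 were 2-fold or more higher in KO members than in the other KO epithelial cells (11.5%) and 1507 were lower (9.73%). Of the higher genes, 362 rested on 1 to 3 UMIs in KO members. A further 1284 genes had no UMI in KO members and too few in the other KO epithelial cells to give a direction, and they are in neither count. Of the 24 highest WT genes, 23 could be listed in KO, and 17 were 2-fold or more higher there and 1 lower. All 14 lowest WT genes were listed, and 12 were 2-fold or more lower.

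Sox17 was found in 13 of 28 KO members (46.4%; 17.9% thinned) and in 24.6% of the other KO epithelial cells (9.28% thinned), at 51.4 CPM in KO members and 26.9 CPM in the other KO epithelial cells. KO immune cells, with a median of 8341.5 UMIs, had Sox17 in 2.72%. Onecut2 measured 41.3 CPM in KO members and 25.1 CPM in the other KO epithelial cells. Tgm4 was found in 1 KO member, with 15 UMIs. Gkn3 measured 2.75 CPM in KO members and 9.23 CPM in the other KO epithelial cells. No KO member had all 3 of Tgm4, Onecut2 and Sox17. Of the genes in the state's name only Cadps and Rarb were high there, which the rule sets where Gkn3 is near absent. By Cadps alone, 65 KO and 397 WT cells with Epcam had 10 or more UMIs. Of these, 37 KO and 65 WT cells were not members, and 28 KO and 31 WT cells had no Gkn3 or Rarb UMI. For KO cells, neighbours were taken in components computed on both libraries together, with no correction between libraries. There a KO member had a median of 2 WT members among its 15 nearest WT cells, and none had 8 or more. Another KO epithelial cell had a median of 0. In the same components a WT member had a median of 5, and 92 of 332 had 8 or more. The part of a shift between libraries was not tested.

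Other genes were high in KO members. Stra6 measured 297 CPM in KO members and 23.6 CPM in the other KO epithelial cells, a log2 ratio of 3.65 (3.48 to 3.82), with UMIs in 26 of 28 members. Pcdh7 measured 302 CPM in KO members and 9.19 CPM in the other KO epithelial cells, in 23 of 28 members. Cntn3 measured 202 CPM in KO members and 6.27 CPM in the other KO epithelial cells, in 15 members. Mybpc1, a myosin binding protein, and Asic2, an acid-sensing channel, were each found in only 5 KO members, and 1 cell supplied 54.2% of the Mybpc1 UMIs. Mybpc1 and Asic2 were taken by their ranking in KO, after their values were seen.

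Wnt genes were also higher in KO members than in the other KO epithelial cells. Wnt6 measured 388 CPM in KO members and 62.8 CPM in the other KO epithelial cells, and Apcdd1 336 CPM in KO members and 38.0 CPM in the other KO epithelial cells. Lef1, a Wnt-responsive transcription factor, measured 237 CPM in KO members and 49.0 CPM in the other KO epithelial cells. Of 31 listed Wnt targets, 16 were 2-fold or more higher and 5 lower. In this comparison, 11.5% of all genes were higher and 9.73% lower. The interferon sum had a median of 2137 CPM per KO member and 256 CPM per other KO epithelial cell, and 10 of 18 listed interferon genes were 2-fold or more higher. All 25 listed G2/M genes were 2-fold or more lower in KO members, and 3 of them had no UMI there, so that their ratios are bounds.

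Between the members of the 2 libraries, 511 of 11438 genes were 2-fold or more higher in KO members than in WT members (4.47%) and 930 were lower (8.13%). Against the WT members without Gkn3 alone, 240 of 9547 genes were higher (2.51%) and 414 were lower (4.34%). Both sets of WT members hold the cell that supplied most Ppy and Chgb UMIs, and these genes were among the lower ones in each comparison. Meis2, a homeodomain factor, measured 173 CPM in KO members and 14.3 CPM in WT members, with UMIs in 21 of 28 KO members. Sparc, a matrix protein, measured 80.8 CPM in KO members and 4.75 CPM in WT members, in 12 KO members. Adamts9 was lower at 8.26 CPM in KO members and 92.6 CPM in WT members, and Sdk1 at 1.84 CPM in KO members and 33.3 CPM in WT members. Mptx2 and B4galnt2 had no UMI in KO members, against 100.3 and 37.6 CPM in WT members. Mptx2 also had too few UMIs over KO members and the other KO epithelial cells together to be listed. Its absence is thus not particular to KO members. The level of B4galnt2 in the other KO epithelial cells is not given here. All genes named for this comparison were picked by their rank in it.

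Markers of other cell types were low in members. The sum of 16 non-epithelial markers was 168 CPM in KO members and 274 CPM in the other KO epithelial cells, and 225 CPM in WT members and 277 CPM in the other WT epithelial cells, against 5549 CPM in KO immune cells and 5739 CPM in WT immune cells. In WT members all 16 were above 0, and in KO members 2 were at 0. Macrophage markers summed to 152 CPM in WT members and 186 CPM in the other WT epithelial cells, and T cell markers to 23.1 CPM in WT members and 31.1 CPM in the other WT epithelial cells. Neutrophil markers summed to 1180 CPM in WT members, 1346 CPM in the other WT epithelial cells and 9146 CPM in WT immune cells. The median cell had 778 CPM of them among WT members, 776 CPM among the others and 921 CPM among WT immune cells. The highest WT member had 30160 CPM of neutrophil markers and the highest for macrophage markers had 5331 CPM. In KO, endothelial markers summed to 20.2 CPM in members and 9.78 CPM in the other epithelial cells, with the highest KO member at 607 CPM. Neutrophil markers there summed to 535 CPM in members and 1000 CPM in the others. Free RNA, estimated from immunoglobulin genes, made up 9.02% of UMIs in WT members and 9.25% in the other WT epithelial cells.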

How the data were processed

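The deposited files are 2 matrices of whole-number UMI counts per gene and barcode, 1 per genotype, made by the authors with Cell Ranger, per the file headers, on mm10, per the submitters' processing notes. No source used here names the annotation release. The matrices held 156641780 (KO) and 164574326 (WT) UMIs over 32285 genes and were not filtered to cells, so cells were taken by the limits given above. Other epithelial cells had at least 1 Epcam UMI and more epithelial than non-epithelial marker UMIs. For each group of cells, UMIs were added up and scaled to CPM. Poisson intervals were used for levels, exact conditional binomial intervals for ratios and Clopper-Pearson intervals for shares, each at 95%. Genes with at least 50 UMIs over both groups were listed, and a gene at 0 in 1 group was set to 3 counts, as a bound. Where that bound pointed away from the 0, the gene was given no ratio and counted as neither higher nor lower. Thinning drew 5000 UMIs per cell. The summing was tested on simulated data. Doublets were kept in the main values and removed by Scrublet score in an alternative.

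The members and the gene lists were chosen with earlier results of these data known. Genes named in WT are the markers of the state, a few pathway genes, the 24 highest and 14 lowest genes by the bound of the interval nearest 0 with at least 30 CPM in the higher group, and up to 4 genes per list. The lists for retinoids, secretion, stomach, gut factors and Wnt allowed any member. Genes named for the KO library and for the Gkn3 subsets were chosen after their values were seen. Scripts ran in Python 3.11.15 with scanpy 1.11.5, scikit-learn 1.9.0, scipy 1.17.1 and pandas 2.3.3.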

Additional observations from a re-analysis of the deposited data

How the results depend on the processing

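No paired analysis was possible because each genotype has 1 library. The share of WT epithelial cells that were members was 11.04% with a Cadps minimum of 5 UMIs, 3.93% with 20, 5.91% with a Gkn3 plus Rarb minimum of 4, 4.40% with thresholds on thinned cells, 7.01% with a minimum of 2000 UMIs per cell and 6.12% over all Epcam cells. For KO the share was 1.13% with a Cadps minimum of 5, 0.329% with 20, 0.306% with a Gkn3 plus Rarb minimum of 4 and 0.306% with thinned thresholds. The count of higher genes was 408 in thinned cells, 403 with a gene minimum of 200 UMIs, 2619 with none and 330 against tumour-marker cells. The count of lower genes was 2066 against all Epcam cells, 550 against cells matched on UMIs, 746 with a gene minimum of 200 and 504 against tumour-marker cells. Leaving out members with enteroendocrine markers and comparing with tumour-marker cells were alternatives chosen after seeing the data. Among ratios past 2-fold, the sign changed only for endocrine genes. With a Cadps minimum of 20 they were -3.82 for Ppy, -3.30 for Chgb and -1.45 for Scg2. With thinned thresholds they were -5.93 for Ppy, -4.21 for Chgb, -0.42 for Scg2 and -0.99 for Scg5. Without the 2 enteroendocrine-marker members they were -1.40 for Ppy, -3.41 for Chgb, -1.36 for Scg2 and -0.052 for Scg5. The other 22 of the 24 highest genes stayed past 2-fold under every alternative run. Of the 14 lowest, 13 stayed past 2-fold with cells matched on UMIs (Zg16 was at -0.77 there), and all 14 under the other alternatives.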
